A study of Mus musculus with 6 samples.

Results

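The cytosolic ribosomal protein genes encode the proteins of the 60S (large) and 40S (small) subunits of the ribosome that translates nuclear-encoded mRNA. They were chosen from the deposited table by a symbol rule, set with earlier results of these data known. It took every gene named Rpl or Rps with a number and at most a single letter a, x, l or y. Rpsa, Rplp0, Rplp1 and Rplp2 were added. Rpl29, which fits the pattern, was left out by name, and pseudogene symbols that hold a hyphen were left out too. This gave 76 of 24841 genes, 45 of the large and 31 of the small subunit. The data are single-nucleus RNA-seq of mouse striatum, dissected and flash frozen, read by their 3' ends on the 10x Genomics platform. One group was wild-type mice and the other mice heterozygous for Celsr3, an adhesion G protein-coupled receptor of the cadherin family, with 3 libraries labelled as biological replicates in each. The allele behind the heterozygous state, and the sex, age, strain and number of animals behind each library, are not given in the sources used here, so p-values measure the spread between libraries.

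Ribosomal protein mRNAs are short and abundant, and the proteins are made in roughly matched amounts, since they are built into particles of fixed makeup. Most of these mRNAs begin with a C followed by a run of pyrimidines, the 5' terminal oligopyrimidine or TOP motif, through which LARP1 and the mTOR pathway set their translation. In neurons their mRNA sits in the cell body, dendrites and axons, and a nucleus holds newly made copies plus whatever cytoplasmic RNA stays with it during isolation. A value from nuclei is therefore not a measure of ribosome number.

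Promoters are shown first, as the sequence context of these genes. Their letters were not set against the expression values. RefSeq promoters (GRCm38.p6, 250 bases before to 50 after the annotated start) were matched for 57 of the 76 genes. The letters CCGGAAG, a core that ETS-family factors can bind, were found on either strand in 23 of the 57 promoters (40.4%) and in 9.12% of all 27025 promoters. GGGCGG, a core of the GC box, was in 57.9% against 35.9%, and TATAAA in 8.77% against 14.2%. AAGATGGC, a core of the YY1 site, was in 5.26% against 2.88%. CTCTTTCC, a polypyrimidine stretch searched on both strands, was in 12.3% against 3.04% and overlaps the next pattern where it lies at the start. A start at C followed by at least 4 pyrimidines, read on the gene's strand only, was annotated for 12 of the 57 genes (21.1%) and for 2.49% of all promoters. The match is fixed to the annotated base, so a start annotated a base or more away can be missed. The share is thus not a count of genes whose mRNA has a TOP motif. These are matches of letters in a window and not sites shown to be bound. The stretches below run from 60 bases before to 20 after the annotated start and were picked to show genes with both patterns and with either one, with capitals marking CCGGAAG or its reverse complement and the pyrimidine run at the start.
Rpl38, chr11:114668520-114668599, plus strand: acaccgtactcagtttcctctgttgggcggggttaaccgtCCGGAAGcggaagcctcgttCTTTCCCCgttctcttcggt
Rps10, chr17:27635225-27635304, minus strand: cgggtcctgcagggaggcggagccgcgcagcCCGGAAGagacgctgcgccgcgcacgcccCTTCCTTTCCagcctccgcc
Rps21, chr2:180257319-180257398, plus strand: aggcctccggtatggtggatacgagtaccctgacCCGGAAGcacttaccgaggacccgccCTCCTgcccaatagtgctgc
Rps27, chr3:90213629-90213708, minus strand: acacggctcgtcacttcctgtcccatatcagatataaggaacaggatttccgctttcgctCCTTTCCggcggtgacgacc
Rps27l, chr9:66946026-66946105, plus strand: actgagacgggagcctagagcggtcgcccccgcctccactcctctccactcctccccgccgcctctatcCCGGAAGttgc
Rpl38, Rps10 and Rps21 hold both patterns within the printed stretch. Rps27, a small-subunit gene, has the pyrimidine start without CCGGAAG in its promoter, and its paralog Rps27l has CCGGAAG without the pyrimidine start.

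After nuclei with a high doublet score were left out, 47971 of 48834 nuclei remained, between 7599 and 8692 a library. Values are depth-corrected UMI counts per nucleus, and the median nucleus had between 2439 and 3004 genes detected across libraries. Libraries shared 275 cell barcodes. Celsr3 was at 0.151, 0.168 and 0.180 for wild type and 0.0788, 0.102 and 0.101 for heterozygous replicates, in nuclei like D1 medium spiny neurons (MSNs), a log2 difference of -0.77 that did not pass (adjusted p = 0.131, limma) although the groups did not overlap. Without wild-type replicate 1 it passed, at -0.84. Clustering left out 219 ribosomal and related genes, among them genes for translation and its regulators, ribosome assembly and small nucleolar RNA hosts. The classes were clusters named "like" a cell type from marker genes, and 14 had at least 20 nuclei in every library. Class make-up differed between libraries: glutamatergic neuron-like nuclei numbered from 206 to 1536 and choroid plexus-like nuclei were present in 3 libraries, so values of all nuclei mix different proportions. Classes pool clusters of unequal make-up too. A glutamatergic neuron-like cluster drew 47.7% of its nuclei from heterozygous replicate 1 and 0.267% from heterozygous replicate 3. An eccentric MSN-like cluster drew 4.03% from heterozygous replicate 1 and 39.95% from heterozygous replicate 2.

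One library stood apart in these genes. Summed over the 76 genes, a nucleus held 74.4 in wild-type replicate 1, 44.2 in wild-type replicate 2 and 45.8 in wild-type replicate 3. The heterozygous libraries were at 43.0, 42.7 and 52.4. Wild-type replicate 1 was 1.63 times the mean of the other 5, which lay between 42.7 and 52.4. It was the highest library for 74 of the 74 genes that passed the filter on low values (mean of at least 0.02 per nucleus and an average summed value of at least 30 per library), where 14.2% of all genes tested were highest in that library. Gene by gene, its excess over the mean of the others ran from 1.29 times for Rps18 to 2.06 times for Rpl21, with a median of 1.61. Rpl21, a 60S protein gene, was at 1.46 in wild-type replicate 1 and between 0.620 and 0.806 elsewhere. Rps18, a 40S protein gene, was at 0.594 against 0.390 to 0.571, so that its nearest library was heterozygous replicate 3.

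Wild-type replicate 1 had the highest summed value in each of the 14 classes. In fibroblast-like nuclei, a smaller class, heterozygous replicate 3 was the highest at 73.4, and wild-type replicate 1 followed at 72.5. In D1 MSN-like nuclei it was highest for 73 of 74 genes (18.2% of all genes), in astrocyte-like nuclei for 73 of 74 (15.8%) and in oligodendrocyte-like and endothelial-like nuclei for 74 of 74 (15.5% and 19.7%). The fewest among classes with over 70 genes tested were 62 of 73 in neuroblast-like nuclei (15.3%). Heterozygous replicate 2 was the lowest library in endothelial-like nuclei, at 115.2 summed against 139.7 to 168.0 in the other 4 below wild-type replicate 1. The plot of each gene against its mean over libraries shows both.

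**Figure D1:**
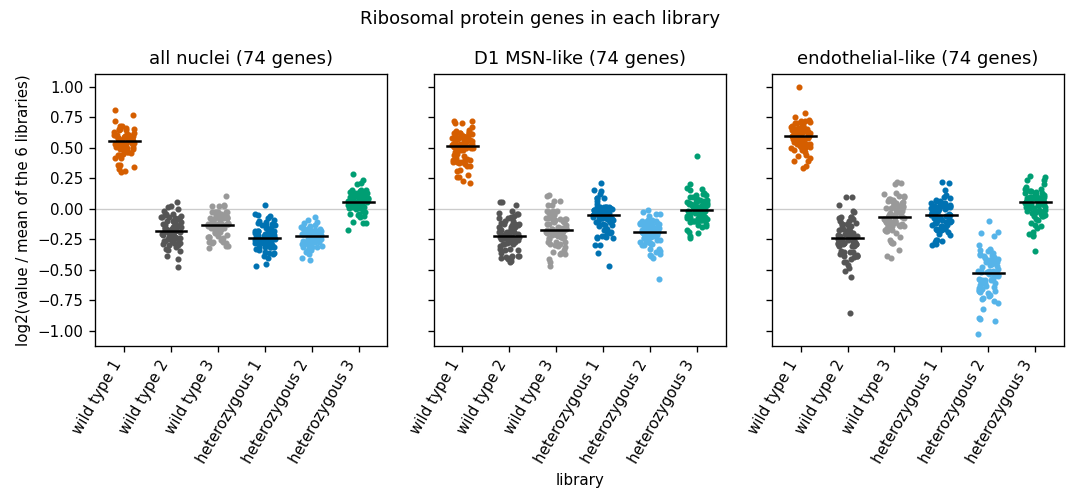
Each point is 1 of the 74 tested ribosomal protein genes, as log2 of its value in a library over its mean in the 6 libraries, with black lines at the medians, for all nuclei, D1 MSN-like nuclei and endothelial-like nuclei. Wild type 1 lies above the other libraries in all 3 panels, and heterozygous 2 lies lowest in endothelial-like nuclei.

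Other measures moved with that library. The summed value of 16 abundant short cytoplasmic mRNAs, such as Fth1 (ferritin heavy chain), Tmsb4x (thymosin beta 4) and Cox4i1 (a respiratory chain subunit), was 55.8 in wild-type replicate 1 and 30.6 to 40.7 in the others. The 14 translation genes of the list whose mRNAs also begin with a TOP motif, among them Eef1a1 and Tpt1, summed to 9.18 against 6.24 to 7.34. Nuclear genes for mitochondrial ribosomal proteins did not stand apart, at 11.0 against 10.3 to 11.1, and genes for ribosome assembly and RNA polymerase I were lowest there, at 3.64 against 3.84 to 4.04. Its nuclei had the fewest genes detected, with a median of 2439 against 2832 to 3004. Transcripts of 8 MSN genes, counted in the 11 classes that are not MSN-like, were lowest in that library in 6 classes, highest in 1 and between the others in 4. In endothelial-like nuclei they summed to 9.84 in it against 10.6 to 14.5 elsewhere, and in oligodendrocyte-like nuclei to 8.48 against 6.65 to 9.06. Both of the larger unnamed clusters had their largest share in that library. The one held 7.22% of the library's nuclei against 2.57 to 5.04%, and the other 3.87% against 1.41 to 3.43%. In the former, of 2145 nuclei, 7 markers of the oligodendrocyte list (a share of 0.875) were raised, but it is not part of the oligodendrocyte-like class. The summed value of 7 RNAs known to stay in the nucleus was highest there in D1 MSN-like nuclei, at 692 against 510 to 676, and lowest there in endothelial-like nuclei, at 428 against 441 to 492. The part of these measures in the excess was not tested.

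The level of these genes differed between cell classes. Nuclei like endothelial cells, which line blood vessels, were at the top with a summed value of 164 ± 45.1 (SD, n = 6 libraries), and nuclei like glutamatergic neurons at the bottom with 28.0. Of the 76 genes, 75 had their highest class mean in endothelial-like nuclei and 60 their lowest in glutamatergic neuron-like nuclei. D1 MSN-like nuclei, the reference class below and the striatal projection neurons of the direct pathway, held 46.3, 27.7 and 28.5 in wild-type replicates 1 to 3, and 31.3, 28.1 and 31.8 in heterozygous replicates 1 to 3. Endothelial-like nuclei were at 248.3, 139.7 and 158.0 and at 157.5, 115.2 and 168.0. The ratio between both classes within a library ran from 4.1 to 5.55, so the excess of wild-type replicate 1 was present on both sides.

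Among the 14 classes the order of the means was endothelial-like, then mural-like (pericytes and smooth muscle of vessels) at 88.2, microglia-like at 76.5, neuroblast-like at 73.4, oligodendrocyte-like at 61.4, astrocyte-like at 60.4, oligodendrocyte precursor cell (OPC)-like at 58.4 and committed OPC-like at 47.0. The classes like mature neurons followed, with eccentric MSN-like at 39.0, GABAergic interneuron-like at 36.2, cholinergic interneuron-like at 34.3, D2 MSN-like (indirect pathway) at 33.8, D1 MSN-like at 32.3 and glutamatergic neuron-like at 28.0. Most neighbours kept their order in 6 of 6 libraries. Microglia-like and neuroblast-like, oligodendrocyte-like and astrocyte-like, astrocyte-like and OPC-like, and GABAergic and cholinergic interneuron-like kept it in 4, and cholinergic interneuron-like and D2 MSN-like in 3. D2 exceeded D1 MSN-like nuclei in each library, by 1.50 ± 0.984 summed units. Of the classes with fewer nuclei, ependymal-like nuclei, from 10 to 48 a library, averaged 90.2 ± 20.8, and fibroblast-like nuclei, from 15 to 99 a library, 64.5 ± 7.02.

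**Figure D2:**
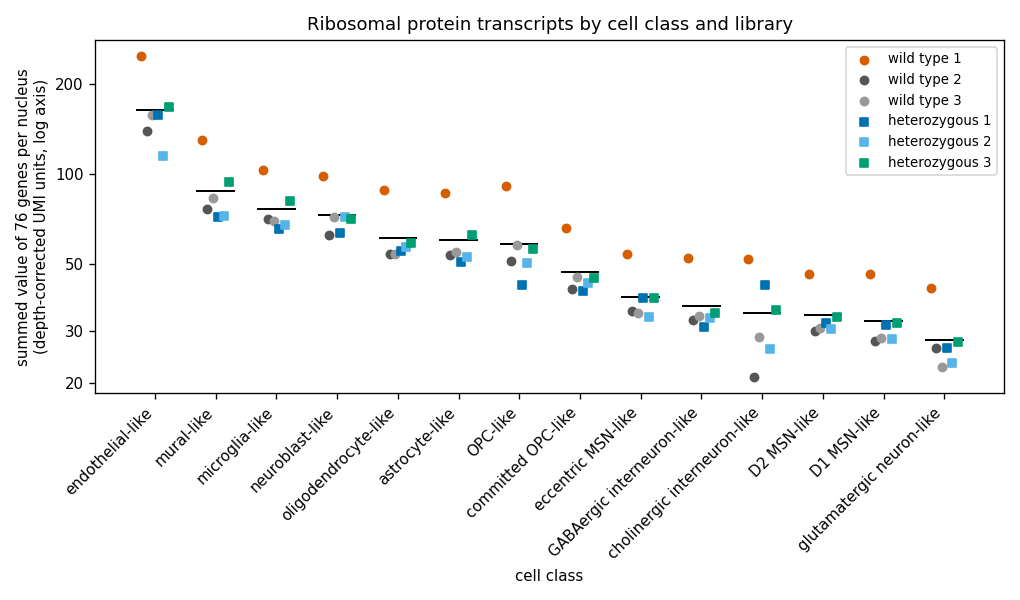
Summed value of the 76 genes per nucleus (log axis, depth-corrected UMI units) in each of 14 cell classes, with 1 point a library (circles wild type, squares heterozygous) and black lines at the means. Endothelial-like nuclei are highest in each library, at 115.2 to 248.3, and wild type 1 is the highest library in each class.

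Gene by gene, the classes were compared with D1 MSN-like nuclei of the same library by limma with the library as a block and Benjamini-Hochberg adjustment over all genes tested. In endothelial-like nuclei 74 of 74 genes were higher, where 22.6% of all genes were. Their median log2 difference was 2.21, against -0.60 for all genes tested. Rpl13, a 60S protein gene, was at 1.26, 0.614, 0.731, 0.868, 0.681 and 0.735 in D1 MSN-like nuclei (wild-type replicates 1 to 3, then heterozygous 1 to 3). In endothelial-like nuclei it was at 9.17, 4.86, 6.50, 6.52, 4.83 and 6.16, so the lowest endothelial-like library lay above the highest D1 one. Its log2 difference was 2.95 (SE 0.0744, adjusted p = 3.2e-16), the largest of the 74.

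Rpl38, which is known for an influence on which mRNAs are translated in the embryo, was at 2.73. The smallest were Rpl31 at 1.35 (SE 0.106, adjusted p = 2.0e-09), Rpl35 at 1.51 and Rpl4 at 1.59. Rpl31, a 60S gene near the exit of the peptide tunnel, was at 0.459 in wild-type replicate 1 and 0.331 to 0.350 in the other libraries in D1 MSN-like nuclei, and at 0.723 to 1.45 in endothelial-like nuclei. Its groups did not overlap either. The spread among the genes thus ran from a ratio of class means of 2.65 for Rpl31 to 7.77 for Rpl13.

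The other glial and vascular classes, and neuroblast-like nuclei, were alike in direction. In mural-like nuclei 71 of 74 genes were higher (9.88% of all genes), with a median of 1.29, and in microglia-like nuclei, the brain's resident macrophages, 73 of 74 (21.6%) with a median of 1.15. Neuroblast-like nuclei had 73 of 74 higher (18.2%) with a median of 1.09. In the oligodendrocyte lineage the counts were 71 for oligodendrocyte-like (18.5%), 66 for OPC-like (14%) and 46 for committed OPC-like nuclei (16.9%), with medians of 0.84, 0.71 and 0.48. Astrocyte-like nuclei had 72 higher (21.4%) with a median of 0.82. None of the genes was called lower in any of these 7 classes or in endothelial-like nuclei. Of all genes 70.6% were lower in oligodendrocyte-like, 67.9% in astrocyte-like, 62.6% in microglia-like, 57% in endothelial-like, 56.4% in mural-like, 54.7% in OPC-like, 50.6% in neuroblast-like and 44.3% in committed OPC-like nuclei.

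The same few genes sat at the ends of many of these comparisons. Rpl13, Rplp1 (an acidic stalk protein that helps recruit elongation factors) and Rps29 were the largest 3 in oligodendrocyte-like, astrocyte-like and microglia-like nuclei. Rplp1 was at 4.18, 3.00 and 2.49 in the wild-type and 2.72, 2.36 and 3.13 in the heterozygous libraries in microglia-like nuclei, and at 0.624 to 1.38 in D1 MSN-like nuclei. Its log2 difference there was 1.83 (SE 0.0672, adjusted p = 9.9e-13).

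Rps27l, a p53-responsive paralog of Rps27, had the smallest difference in astrocyte-like, microglia-like and neuroblast-like nuclei. In microglia-like nuclei it was at 0.0329 to 0.0645, and the log2 difference of 0.19 (SE 0.147, adjusted p = 0.230) did not pass. Rpl22, a 60S gene with roles in T-cell development, passed in microglia-like nuclei at 0.47 (SE 0.0950, adjusted p = 0.00026) and did not in astrocyte-like nuclei at 0.13 (adjusted p = 0.0721). Rpl35 and Rpl10a stayed at 0.11 each in oligodendrocyte-like nuclei, with adjusted p = 0.172 and 0.166.

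Among the classes like mature neurons the differences were small and of both signs. Glutamatergic neuron-like nuclei had 50 of 74 genes lower (21.5% of all genes) and 0 higher (44.4%), with a median of -0.21 against 0.15 for all genes. Rpl31 was at 0.384, 0.223, 0.228, 0.249, 0.244 and 0.261 there against 0.459, 0.331, 0.343, 0.334, 0.350 and 0.350 in D1 MSN-like nuclei of the same libraries. Each library's glutamatergic value was the lower one, and the log2 difference was -0.45 (SE 0.0596, adjusted p = 8.7e-05). Rps12 and Rps24, both 40S genes, were at -0.38 and -0.37. Rpl36a, Rpl15 and Rpl22 were at 0.03, 0.02 and -0.01 and did not pass.

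Eccentric MSN-like nuclei had 63 of 74 genes higher (38.9%), with a median of 0.26 against 0.11 for all genes, led by Rpl11, Rpl13 and Rpl9 at 0.47, 0.46 and 0.44. Rpl11 belongs with Rpl5 and 5S rRNA to the particle that binds MDM2 when ribosome assembly fails. GABAergic interneuron-like nuclei had 29 of 74 higher, at the share of all genes (39.4%), and 1 lower (25.4%), the lower one being Rpl31 at -0.26 (adjusted p = 0.00913). D2 MSN-like nuclei had 16 higher (8.28%) and 0 lower (27.1%), with a median of 0.07 against -0.07, and Rpl37 and Rpl32 were at 0.13 each (adjusted p = 0.0123 and 0.0121). Cholinergic interneuron-like nuclei, from 30 to 44 a library, had 0 higher (25.6%) and 1 lower (20.6%), Rps16 at -0.60 (SE 0.229, adjusted p = 0.0466). Of these 74 genes, 5 had an unadjusted p below 0.05 in that class, against 52.9% of all genes. The counts in these 4 classes are not stable. With median-ratio size factors they became 29 higher for eccentric MSN-like (29.2% of all genes on that scale), 4 for GABAergic interneuron-like (30.8%) and 60 for D2 MSN-like nuclei (17.1%), and 17 lower in cholinergic interneuron-like nuclei (27.1%). Without wild-type replicate 2 or 3 the D2 MSN-like count was 8 or 10 (7.36% and 7.38% of all genes) and the GABAergic count 19 or 18 (37.7% and 36.3%). Without heterozygous replicate 2 or 3 the cholinergic count of lower genes was 0 (18.4% and 18.9%), and without heterozygous replicate 1 it was 2 (19.6%). Without wild-type replicate 2, 7 of the genes were higher in that class (22.9%).

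**Figure D3:**
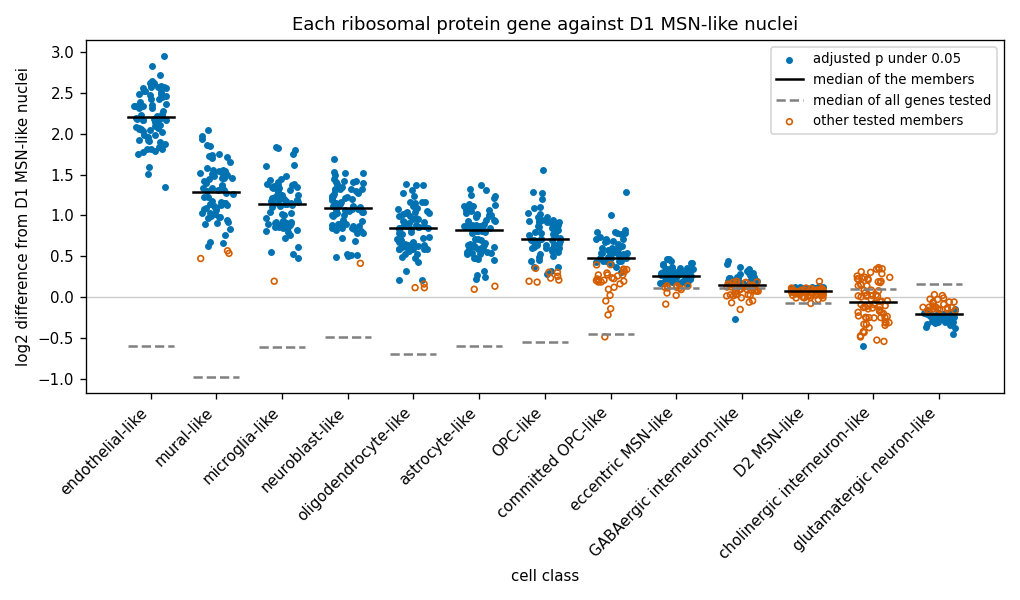
Log2 difference of each of 74 ribosomal protein genes between a cell class and D1 MSN-like nuclei (filled points, adjusted p under 0.05; open points, other tested genes), with the median of the genes in black and of all genes tested dashed. The medians run from 2.21 in endothelial-like to -0.21 in glutamatergic neuron-like nuclei.

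Large- and small-subunit genes kept a nearly fixed proportion. The summed 60S value was 1.36 ± 0.0193 times the summed 40S value in D1 MSN-like nuclei (n = 6 libraries), 1.35 ± 0.0254 in endothelial-like and 1.40 ± 0.0447 in glutamatergic neuron-like nuclei. The lowest class mean was 1.29 ± 0.0377 in microglia-like and the highest 1.44 ± 0.112 in cholinergic interneuron-like nuclei. In endothelial-like nuclei the median log2 differences from D1 MSN-like nuclei were 2.21 for 43 large-subunit and 2.20 for 31 small-subunit genes.

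The number of genes detected differed between the classes that differed in level. The median nucleus had 3390 genes detected among D1 MSN-like and 1903 among endothelial-like nuclei. The 5 classes like mature neurons other than D1 lay between 3266 and 3761. The other glial and vascular classes and neuroblast-like nuclei lay between 1752 and 2566. Within endothelial-like nuclei the third with most genes detected had 1.55 to 2.95 times the summed value of the third with fewest, in each of 6 libraries. In microglia-like nuclei that ratio was above 1 in each of 6 libraries too, with 1.06 as the lowest and 1.204 as the highest value. It ran from 0.802 to 1.11 for oligodendrocyte-like nuclei and from 0.824 to 0.950 for astrocyte-like ones. Both large MSN classes lay around 1, D2 between 0.883 and 1.03 and D1 between 0.894 and 1.02. Among nuclei matched on genes detected, fewer genes passed the filter. The filter takes the mean over both classes compared, so with few matched nuclei a gene could pass through its high value in the class set against D1. The genes tested after matching were thus partly selected by the difference itself, and their counts and medians are a description only. In endothelial-like nuclei 73 of 73 then were higher, where 43.1% of all genes tested after matching were, with a median of 2.47. The counts were 72 of 72 in oligodendrocyte-like (44.6%) with a median of 0.66, 73 of 73 in astrocyte-like (41.3%) with 0.72 and 28 of 28 in microglia-like nuclei (43.1%) with 1.19. In OPC-like nuclei 34 of 51 were higher after matching (30.9%) and in neuroblast-like 46 of 46 (47.4%). In committed OPC-like nuclei 16 of 35 were higher, near the 41.8% of all genes, and among GABAergic interneuron-like nuclei 6 of 73, below the 35.1%. In mural-like nuclei none of these genes passed the filter after matching, so their difference could not be examined that way.

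**Figure D4:**
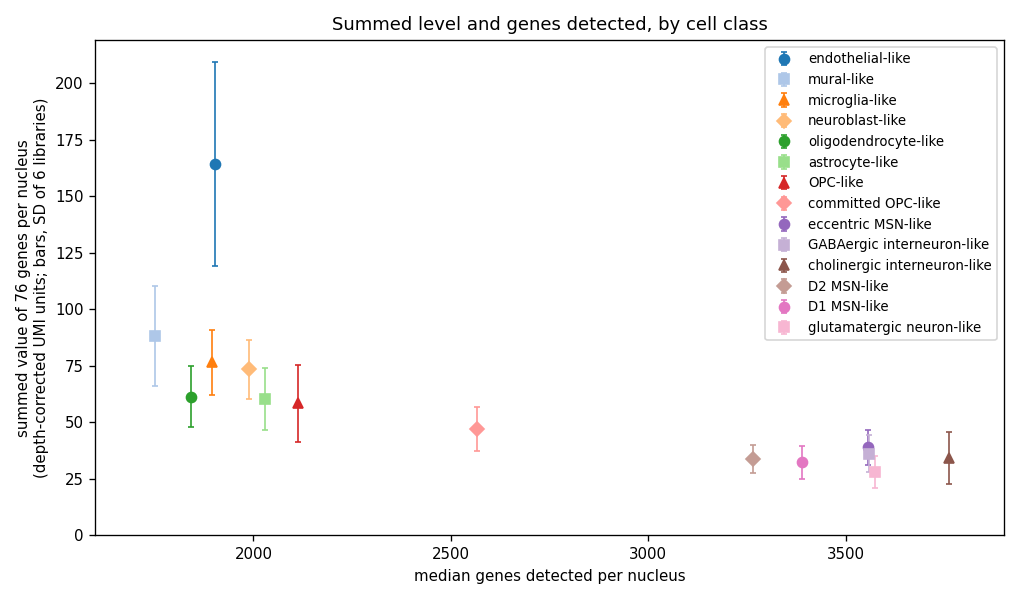
Mean summed value of the 76 genes per nucleus (bars, SD of 6 libraries) against the median number of genes detected per nucleus in 14 cell classes. The 6 classes like mature neurons lie at 3266 to 3761 genes and 28.0 to 39.0 summed units, and endothelial-like nuclei at 1903 genes and 164 units.

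Transcripts that mark MSNs were counted in the other classes too. Summed over 8 MSN genes such as Ppp1r1b (DARPP-32) and Penk (enkephalin), D1 and D2 MSN-like nuclei were at 50.7 and 57.6. Eccentric MSN-like nuclei were at 13.8, from 8.83 to 22.6 by library. Endothelial-like and microglia-like nuclei were at 11.4 each, mural-like nuclei at 13.9 and oligodendrocyte-like nuclei at 8.1. In these values RNA from other nuclei and a class's own expression cannot be told apart. One cluster of 1363 nuclei without a class name had a summed ribosomal protein value of 118, above every class but endothelial-like, with a median of 1723 genes. Its MSN transcripts summed to 23.7, the highest outside D1 and D2 MSN-like nuclei. Nuclear-retained RNA summed to 294 in it, the lowest of the classes and clusters compared. Among classes that RNA did not follow the ribosomal protein level in one direction: it was 630 in D1 MSN-like nuclei, lower in endothelial-like and microglia-like nuclei at 463 and 345, and higher in mural-like and oligodendrocyte-like nuclei at 808 and 854. The leading genes of the unnamed cluster included Pmch, Atp1b1, Fth1 and Hsp90aa1. The part of these in the class differences was not tested.

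Several of these genes are often followed singly. Rpsa, the 40S laminin-receptor protein, averaged 0.604 ± 0.150 in D1 MSN-like, 2.65 ± 0.760 in endothelial-like and 0.510 ± 0.147 in glutamatergic neuron-like nuclei (SD, n = 6). Rplp0, the base of the acidic stalk and a common qPCR reference, was at 0.239 ± 0.0412, 1.05 ± 0.330 and 0.219 ± 0.0454. Rps6, whose protein is phosphorylated by S6 kinase after neuronal activity, was at 0.283 ± 0.0621, 1.35 ± 0.435 and 0.257 ± 0.0502. Each was highest in wild-type replicate 1 in these 3 classes. Rplp0 had its lowest class mean in GABAergic interneuron-like nuclei, at 0.214, where its log2 difference from D1 MSN-like nuclei was -0.15 (SE 0.0846, adjusted p = 0.130) against a median of 0.15 for the 74 genes. Across classes and libraries its log2 level had the second-lowest correlation with the median of the group (Pearson r 0.739 over 84 means), above Rps27l at 0.635.

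Rps27a, which encodes a ubiquitin fused to a 40S protein, was at 0.588 ± 0.130 in D1 MSN-like and 3.61 ± 1.12 in endothelial-like nuclei. Rps19, the gene most often mutated in Diamond-Blackfan anaemia, was at 0.390 ± 0.0850 and 2.06 ± 0.448, and Rpl5, of the same disease group, at 0.411 ± 0.0776 and 1.60 ± 0.421. For all 3, the lowest endothelial-like library lay above the highest D1 MSN-like library.

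Rpl3l and Rpl39l, paralogs with restricted expression elsewhere, were near the floor. Rpl3l, the striated-muscle paralog of Rpl3, averaged 0.00783 over all nuclei against 0.770 for Rpl3 and did not pass the filter. It was the only gene whose highest class mean was not in endothelial-like nuclei: mural-like nuclei were at 0.0328, 0 and 0.106 in the wild-type and 0, 0.152 and 0 in the heterozygous libraries. Listed at 0 in 3 of 6 libraries of 41 to 61 nuclei, it cannot be ranked there. In D1 MSN-like nuclei Rpl3l was at 0.0114 to 0.0244, above 0 in 6 of 6 libraries, whereas wild-type replicate 1, at 0.0147, was not the highest. Rpl39l, the testis-enriched paralog of Rpl39, averaged 0.000183 and was listed at 0 in 3 of 6 libraries. Rps27l averaged 0.0556 against 0.642 for Rps27, and in endothelial-like nuclei 0.241 against 1.95. Rpl10l and Rps4l are not listed under those symbols in the deposited table.

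No gene of the symbol rule passed the genotype test in any of 15 sets of nuclei (all nuclei and 14 classes, limma, Benjamini-Hochberg over all genes tested). Rpl29, which that rule leaves out, is given further below. In all nuclei 0 of 74 were called, where 0% of 14400 genes were, and 0 of the 74 had an unadjusted p below 0.05, against 9.92% of all genes. In D1 MSN-like nuclei 0 of 74 were called (0.0149% of all genes) and 0 were below 0.05 unadjusted, against 10.1% of all genes. In both sets 0 of 74 had heterozygous libraries all below the wild-type ones, as 4.42% and 5.07% of all genes did. The wild-type spread in these tests includes the excess of wild-type replicate 1, the highest library for 74 and 73 of the 74 genes. The counts thus do not show that these genes differ less by genotype than other genes. In D2 MSN-like nuclei 0 of 74 were called (0.0157%) and 1 was below 0.05 unadjusted, against 8.39% of all genes. Over the other 12 classes 0 were called, with backgrounds of 0% in 11 and 0.00798% in glutamatergic neuron-like nuclei. The largest numbers below 0.05 unadjusted were 7 of 73 in OPC-like (4.45% of all genes) and 5 of 73 in GABAergic interneuron-like nuclei (6.54%), with 6 and 5 whose groups did not overlap (3.13% and 6.34%). Neuroblast-like nuclei had the most genes with heterozygous libraries all below the wild-type ones, 7 of 73 (4.82% of all genes).

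The genes with the smallest p show the size of the differences. Rps12, a 40S gene, was at 1.16, 0.809 and 0.716 for wild type and 0.581, 0.680 and 0.836 for heterozygous replicates, over all nuclei. Heterozygous replicate 3 lay above both lower wild-type libraries. The log2 difference, heterozygous minus wild type, was -0.34 (SE 0.201, adjusted p = 0.556). Rps3, a 40S protein with a role in DNA repair, was at 0.883, 0.503 and 0.542 against 0.407, 0.436 and 0.618, and Rpl23a, a docking site for nascent-chain factors, at 0.670, 0.438 and 0.442 against 0.381, 0.417 and 0.459. Their groups overlapped too, with differences of -0.37 and -0.27 (adjusted p = 0.580 and 0.565).

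In D2 MSN-like nuclei Rpl23a was at 0.457, 0.348 and 0.363 in the wild-type and 0.290, 0.323 and 0.326 in the heterozygous libraries. It was the only one of the 74 whose groups did not overlap there, where 5.56% of all genes were lower in that way, and its difference was -0.30 (SE 0.117, adjusted p = 0.528). In D1 MSN-like nuclei the smallest p values belonged to Rpl36a at -0.31, Rps28 at -0.21 and Rps3 at -0.29 (adjusted p = 0.597, 0.606 and 0.646). Rps28 was at 0.439, 0.329 and 0.314 against 0.283, 0.296 and 0.343, and overlapped.

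The sign of the differences depended on 1 library. With 6 libraries the median of the 74 genes was -0.20 in all nuclei, against 0.07 for all genes, and 74 of 74 lay below 0. Without wild-type replicate 1 the median was 0.02 and 49 of 74 lay above 0. In D1 MSN-like nuclei the median went from -0.12 (73 of 74 below 0) to 0.11 (64 of 74 above 0), and in D2 MSN-like nuclei from -0.14 (69 of 74 below 0) to 0.06 (59 of 74 above 0). In summed value, heterozygous over wild type was 0.840 with and 1.02 without that library in all nuclei. Without it 0 of the 74 genes were called in these 3 sets, while over all genes 0 were called in all nuclei, 209 in D1 and 120 in D2 MSN-like nuclei.

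Classes differed in how far the median moved. Without wild-type replicate 1 it was 0.10 in oligodendrocyte-like, 0.03 in astrocyte-like, 0.01 in microglia-like and 0.09 in glutamatergic neuron-like nuclei. In eccentric MSN-like and neuroblast-like nuclei it was 0.07 and 0.03. It stayed below 0 in OPC-like nuclei at -0.18, from -0.41 with 6 libraries, and in endothelial-like and GABAergic interneuron-like nuclei at -0.04 each, from -0.28 and -0.25. In committed OPC-like and mural-like nuclei it stayed below 0 too, at -0.06 and -0.01 over 46 and 60 tested genes, from -0.23 each. OPC-like nuclei numbered 32 in the smallest library, heterozygous replicate 1. In cholinergic interneuron-like nuclei 3 of the genes could be tested, among them Rplp1 and Rpl13, with differences of 0.52 and 0.14 and adjusted p of 0.973 and 0.985. Their median was above 0, unlike in the other classes, at 0.43 with 6 libraries and 0.85 without wild-type replicate 1, and it was -0.10 over 4 genes without wild-type replicate 2. Over all 76 genes heterozygous over wild type in summed value was 1.02 there with and 1.40 without wild-type replicate 1.

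**Figure D5:**
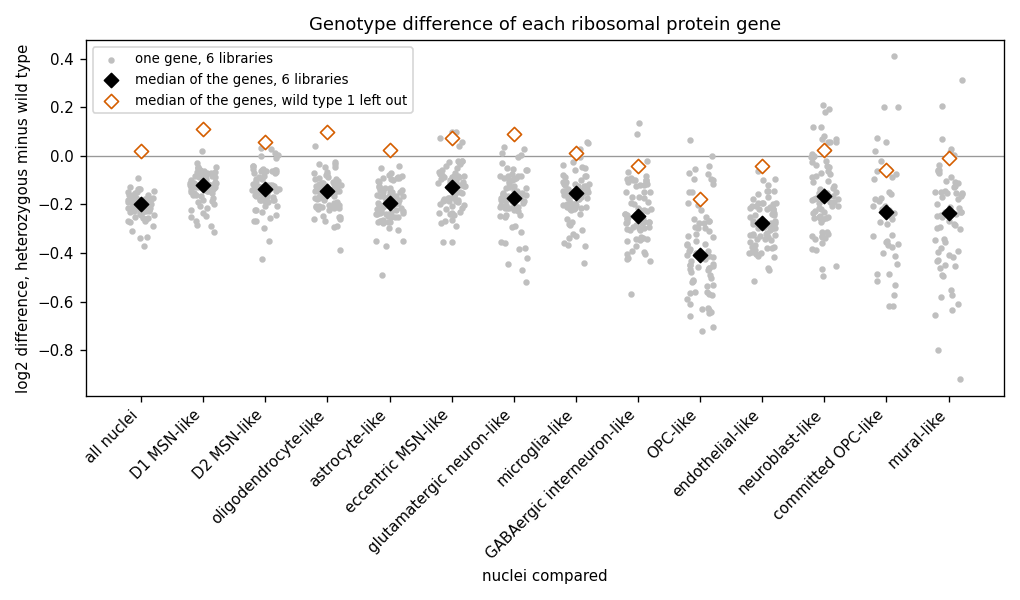
Log2 difference between heterozygous and wild-type libraries for each tested ribosomal protein gene (grey), its median with 6 libraries (black) and without wild type 1 (open), in all nuclei and 13 classes (cholinergic interneuron-like nuclei, with 3 genes tested, are not drawn). The black medians lie between -0.41 and -0.12, and the open ones between -0.18 and 0.11.

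The genotype difference was also compared between D1 and D2 MSN-like nuclei, by an interaction term with the library as a block. Of the 74 genes 0 were called (0.061% of all genes) and 3 had an unadjusted p below 0.05, against 5.27% of all genes. The median difference of differences was -0.01.

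Other genes of the translation machinery followed these genes to different degrees. In endothelial-like nuclei, where 22.6% of all genes were higher and 57% lower than in D1 MSN-like nuclei, 13 of 14 TOP-mRNA translation genes were higher, with a median of 1.54, led by Tpt1 at 3.28 and the elongation factors Eef1a1 at 2.39 and Eef2 at 1.82. Of 8 ribosomal genes outside the symbol rule 7 were higher, including Fau (fused to a ubiquitin-like protein) at 2.68 and Rack1 (a 40S scaffold) at 1.95. Mitochondrial ribosomal protein genes went both ways, with 21 of 77 higher (27.3%, near the share of all genes), such as Mrpl51 at 1.22, and 19 lower (24.7%), such as Mrps27 at -1.76. Of 19 tested genes for ribosome assembly and RNA polymerase I, 13 were lower (68.4%), among them Polr1a at -2.42 and Mdn1 at -2.03, and 2 higher, with Ncl (nucleolin) at 1.23. Of 8 tested host genes of small nucleolar RNAs 4 were lower (50%), with Snhg5 at -1.34, and 0 higher. Both counts of lower genes lie near the share of all genes. Regulators of TOP-mRNA translation were mostly lower (6 of 7), with Mtor at -1.09. The 16 short cytoplasmic mRNAs were all higher, with a median of 1.92.

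In glutamatergic neuron-like nuclei, where 44.4% of all genes were higher and 21.5% lower, 5 of 14 TOP-mRNA translation genes were lower (35.7%), with Eef1a1 at -0.38, and 1 was higher. Of 77 mitochondrial ribosomal protein genes 17 were higher (22.1%) and 7 lower (9.09%), both below the shares of all genes. The short cytoplasmic mRNAs were lower in 12 of 16, with Ckb (brain creatine kinase) at -0.83 and Cox7c at -0.43, and higher in 1.

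By genotype none of these lists held a called gene in all nuclei or in D1 MSN-like nuclei. Rpl29, which the symbol rule leaves out by name, had the smallest p among the ribosomal genes in D1 MSN-like nuclei, at -1.09 (SE 0.133, adjusted p = 0.0582, limma). In all nuclei Rpl29 was at -1.12 (SE 0.169, adjusted p = 0.443, limma).

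Across 84 means (14 classes in 6 libraries) the genes outside the group whose log2 level was most like the median of the 74 were Fau (Pearson r 0.969), Tpt1 (0.967), Tmsb4x (0.962), Eif1 (0.959), Chchd2 (0.958), Ppia (0.955), Ftl1 (0.950), Naca (0.941), Atp5j (0.940) and Eef1a1 (0.935). Of the 100 genes with the highest r, 65 belonged to the group, whose own r ran from 0.635 to 0.979 with a median of 0.948, while the median of the other genes was -0.373. The points share libraries, depth and the difference in genes detected between classes, and the median includes the genes themselves, so these are descriptions.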

How the data were processed

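Single-nucleus RNA-seq of 6 striatal libraries was used as the authors deposited it, in 1 table of 24841 genes and 48834 nuclei. Per the submitters' processing notes, Cell Ranger, Seurat 4.1 and the mouse build GRCm38 (mm10) were used, and use of strand is not given in the sources used here. The deposited whole numbers are a score rather than raw counts: totals per nucleus ran from 4523 to 10638 with a coefficient of variation of 10.7%, as depth-corrected UMI values do, so no count model was fitted and counting intervals were not computed. Reads of near-identical ribosomal pseudogenes may be split or lost, so single genes are uncertain.

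Nuclei were clustered with scanpy 1.11.5 (2000 variable genes, 30 components, 15 neighbours, Leiden resolution 1) with ribosomal and related genes left out, giving 41 clusters. They were named from marker lists, and 863 nuclei of high doublet score (over 0.25, or in clusters where over 40% were) were left out. Scrublet's own threshold marked 0.317 to 0.824% a library. Of the clusters, 5 stayed unnamed and 5 were doublet clusters. Library means per class, log2(value + 0.01), were tested with limma 3.58.1 (trended empirical Bayes) in R 4.3.3, with Benjamini-Hochberg adjustment over all genes tested and a threshold of 0.05. Genes needed a mean of 0.02 and a summed value of 30. Fold changes are on that scale and understate low genes.

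The words "ps or -" in the symbol rule were read as pseudogene symbols holding a hyphen. The genes and lists were chosen with earlier results of these data known. Named genes were the 3 of smallest p in genotype comparisons, the 3 largest and 3 smallest class differences, fixed paralogs and well-known members, up to 4 genes per list, and the 10 most alike. Rpl21, Rps18 and Rpl22 were also named as ends of a range, chosen after their values were seen. Alternatives were another pseudocount, no filter, equal totals, size factors, array weights, a replicate block, matching on genes detected, doublets kept, and each library left out. Promoters came from RefSeq. Values of some single genes named by these rules are not reported here.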

Additional observations from a re-analysis of the deposited data

How the results depend on the processing

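By genotype, 0 genes of the symbol rule were called under each alternative in all nuclei, D1 and D2 MSN-like nuclei and the other 12 classes. Replicate numbers are shared by both groups, but same-numbered libraries did not deviate together throughout (r = -0.04, 0.141 and -0.071 in all nuclei, and 0.267, 0.014 and 0.186 in D1 MSN-like nuclei, for replicates 1 to 3). Such values cannot settle whether same-numbered libraries were handled together. The labels name no batch, and the main tests took the replicate numbers as numbers only. With the replicate block 0 of these genes were called too. Over all genes the block took the calls from 2 to 3 for D1 MSN-like nuclei and from 2 to 9 for the D2 class, and leaving out wild-type replicate 1 took them to 209 and 120. Leaving out the unnamed cluster of 1363 nuclei, an alternative chosen after seeing the data, gave a median of -0.19 in all nuclei. Size factors shift the median of all genes, for example from -0.60 to -0.20 in endothelial-like, from -0.70 to -0.03 in oligodendrocyte-like and from -0.07 to 0.00 in the D2 class, so class differences are relative to the scale used. On that scale 40.2% of all genes were higher and 42.8% lower in oligodendrocyte-like nuclei, against 18.5% and 70.6%. Matching on genes detected reduces the genes tested, which limits how many can be called. In GABAergic interneuron-like nuclei nearly all of these genes stayed tested while their count fell, and the reason was not tested. The filter takes the mean over both classes, so after matching genes high in either class pass more readily. Fold changes of genes near the filter carry most error.

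Shares in brackets are those of all genes called in the same direction under the same setting. Size factors gave 60 genes higher in D2 MSN-like nuclei (17.1%), 29 in the eccentric MSN-like class (29.2%) and 4 in GABAergic interneuron-like nuclei (30.8%), and 17 lower in cholinergic interneuron-like nuclei (27.1%), where no filter and matching gave 0 (16.1% and 38.6%, with none of these genes tested after matching). Matching gave 41 higher in eccentric MSN-like (31.4%), 28 in microglia-like (43.1%), 6 in GABAergic interneuron-like (35.1%), 34 in OPC-like (30.9%), 46 in neuroblast-like (47.4%), 16 in committed OPC-like (41.8%) and 0 in mural-like nuclei (20.5%), where none was tested. Leaving out a library gave 8 to 23 higher for D2 MSN-like (7.36 to 8.13%) and 18 to 35 for GABAergic interneuron-like nuclei (36.3 to 39.1%), and 0 to 2 lower in cholinergic interneuron-like nuclei (18.4 to 19.6%). The ratio of summed values to D1 MSN-like nuclei was 5.64 after matching and 6.35 with equal totals in endothelial-like, 1.57 and 2.18 in oligodendrocyte-like, and 3.15 with equal totals in microglia-like nuclei. Celsr3 in D1 MSN-like nuclei passed with array weights, at -0.779, and ranged from -0.84 to -0.66 over left-out libraries.

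Some differences near 0 changed sign. With size factors and matching in turn, the values became 0.044 and 0.041 for Rplp0 in D2 MSN-like nuclei, -0.11 and -0.038 for Rpl7 and -0.076 and -0.047 for Rpl4 in eccentric MSN-like nuclei, and -0.14 and -0.16 for Rpl36a in glutamatergic neuron-like nuclei. Rpl35 in D2 MSN-like nuclei became 0.0033 after matching. Rpl15 became -0.0087 with equal totals and -0.15 with size factors in glutamatergic neuron-like nuclei, and 0.052 with size factors in committed OPC-like nuclei. Over left-out libraries Rpl7 in eccentric MSN-like nuclei ranged from -0.035 to 0.086 and Rplp0 in committed OPC-like nuclei from -0.73 to 0.30. In glutamatergic neuron-like nuclei Rpl36a ranged from -0.024 to 0.064, Rpl15 from -0.016 to 0.037 and Rpl22 from -0.048 to 0.044. Rpl13 by genotype in cholinergic interneuron-like nuclei ranged from -0.50 to 0.66. Apart from the effects that the construction of a setting shows, the cause was not tested.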
